A study of Bos taurus with 38 samples.

Results

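CTH and ALDH18A1 are enzymes of amino acid synthesis, and their expression was followed here in the liver of dairy cows across breed, diet, parity, feeding period and residual feed intake (RFI). They are 2 of the 24616 genes counted, chosen by identifier (ENSBTAG00000014791 for CTH and ENSBTAG00000011832 for ALDH18A1), and both passed the limit on low counts in either breed. The study biopsied the liver of 9 Holstein and 10 Jersey cows from a Danish research herd, each once on a low-concentrate control diet (C) and once on a high-concentrate diet (HC) in a crossover with 2 periods. RFI is the feed a cow eats beyond what her production and body size predict, so a high-RFI cow is the less efficient one. The 8 groups were Holstein high RFI (4 cows), Holstein low RFI (5 cows), Jersey high RFI (5 cows) and Jersey low RFI (5 cows), each on C and on HC. Cows of parity 1, 2 and 3 were present in every breed and RFI group. The HC ration also held more crude protein and starch and less fibre than the C ration, and every group consisted of live cows of 1 herd sampled by biopsy, so the cell makeup of each biopsy is part of the measurement.

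CTH encodes cystathionine gamma-lyase, the last enzyme of transsulfuration, which cleaves cystathionine to release cysteine and can also produce hydrogen sulfide. Cysteine from this route feeds the synthesis of glutathione and taurine in the liver. ALDH18A1 encodes the mitochondrial delta-1-pyrroline-5-carboxylate synthase, which starts the synthesis of proline from glutamate and can also lead to ornithine.

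The libraries held 17472750 to 24478289 read pairs on genes. CTH rested on 118 to 432 read pairs per library (median 234) and ALDH18A1 on 278 to 703 (median 427.5), so counting error alone gives a coefficient of variation of 9.21% at the lowest CTH count and 5.998% at the lowest ALDH18A1 count. All 38 libraries differed in their counts. CYP7A1, the rate-limiting enzyme of bile acid synthesis in hepatocytes, was present at 37.97 to 1042 CPM in all 38 libraries. It stands outside the list of hepatocyte markers, of which 0 of 10 could be paired with an identifier. In the Jerseys, 15 genes were on (at least 0.5 CPM) in some libraries and off (at most 0.1 CPM) in others. Cow 10, as labelled, had the same state in its C and HC libraries for 10 of the 15 genes, and cow 17 for 11. The C libraries of both cows matched each other in 14 genes, their HC libraries in 15, and the pair of libraries of any other Jersey in 12 to 15 (8 cows). Over all genes tested, the deviations from the group means correlated at r = -0.04 between the C libraries of both cows and at r = 0.05 between their HC libraries. Within cow 10 the value was r = 0.11 and within cow 17 r = 0.23, with -0.11 to 0.61 in the other Jerseys. Both cows belong to the same group on each diet, and subtracting a shared group mean lowers r between libraries of that group. These values therefore cannot decide which libraries belong together. The labels of cows 10 and 17, both low RFI, were used as given, and the fitted Jersey and breed differences are also stated without them. In the RefSeq annotation of assembly ARS-UCD2.0, no gene overlaps CTH, while the pseudogene LOC525649 overlaps ALDH18A1. As the strand setting of the counting is not given, it cannot be told how read pairs from that stretch were assigned.

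In the Holsteins, CTH was lower and ALDH18A1 was higher in the high-RFI cows than in the low-RFI cows, and the cow means of the RFI groups did not overlap for either gene. Among the high-RFI Holsteins, CTH was at 8.63 CPM on C and 8.86 on HC in cow 2, 6.75 and 6.62 in cow 7, 7.32 and 9.06 in cow 9, and 9.59 and 11.3 in cow 15. Among the low-RFI Holsteins, it was at 11.4 CPM on C and 16.3 on HC in cow 1, 14.3 and 13.1 in cow 6, 11.4 and 12.5 in cow 11, 11.7 and 14.3 in cow 16, and 13.2 and 20.8 in cow 19. Every low-RFI cow was therefore above every high-RFI cow on either diet, with cow 7 the lowest and cow 19 on HC the highest library. The cow means were 8.51 ± 1.54 CPM for high RFI and 13.9 ± 1.89 CPM for low RFI (SD, n = 4 and n = 5).

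**Figure D1:**
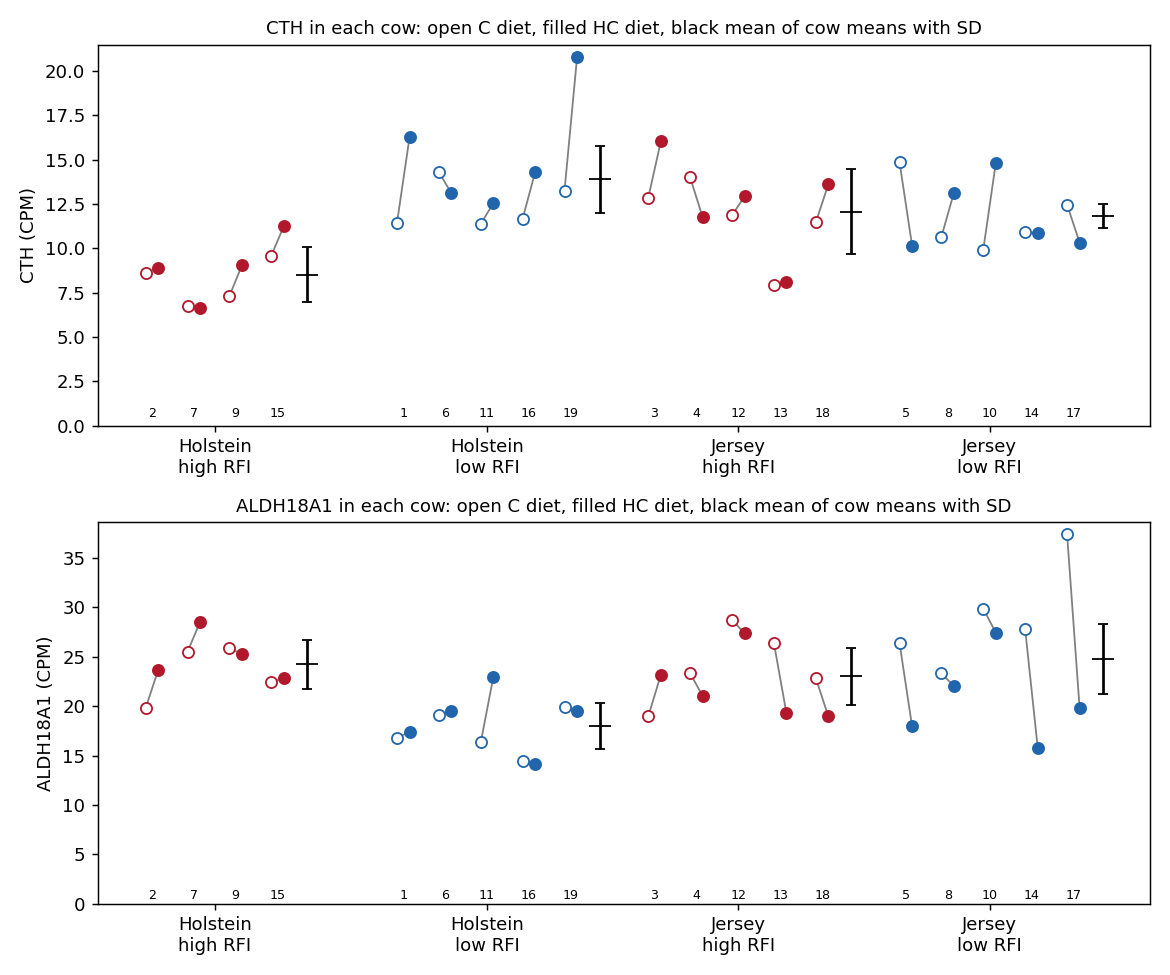
CTH (top) and ALDH18A1 (bottom) in CPM for each cow, named by its number, with the open point on the C diet and the filled point on the HC diet, red for high RFI and blue for low RFI. The black bar gives the mean of the cow means and its SD. CTH of the 4 high-RFI Holsteins lies at 6.62 to 11.3 CPM, below 11.4 to 20.8 CPM in the 5 low-RFI Holsteins, and the Jersey groups overlap.

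With edgeR, CTH fell by 0.63 on the log2 scale in the high-RFI Holsteins (SE 0.10, adjusted p = 0.0121), and it ranked 5 of 12025 genes by p. Of all genes tested, 0.0665% were called in this comparison (8 genes). Permuting the RFI groups over the cow means gave an exact two-sided p of 0.00794, the smallest that 4 against 5 cows allow (0.0952 adjusted over the 12 tests of the gene). Cow means were all lower in the high-RFI group for 0.773% of the genes tested. Both genes are in the study's own list of genes differing by RFI in the Holsteins, so this difference is not independent evidence of their direction. The call was lost in fits that join the 2 libraries of a cow, which also differ from the main fit in method or number of samples. Limma with a random replicate block for the cow gave -0.63 with an adjusted p of 0.0530, and edgeR on the summed libraries of each cow -0.63 with one of 0.469. Which of these changes lost the call was not tested. The CTH call was also lost in edgeR on the C libraries alone (-0.52, adjusted p = 0.620) or the HC libraries alone (-0.73, adjusted p = 0.9995), with the RFI value of each cow in place of her group (-0.34 per unit of RFI, SE 0.11, adjusted p = 0.370), and without cow 2, 7, 11 or 15 (adjusted p up to 0.138). By the RFI values of the study's methods, the Holstein groups overlap, since cow 1 of the low-RFI group lies above cow 15 of the high-RFI group.

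ALDH18A1 moved the other way. In high-RFI Holsteins it was 19.8 CPM (C) and 23.7 CPM (HC) in cow 2, 25.5 and 28.6 in cow 7, 25.8 and 25.3 in cow 9, and 22.4 and 22.9 in cow 15. In low-RFI Holsteins it was 16.8 CPM (C) and 17.4 CPM (HC) in cow 1, 19.1 and 19.5 in cow 6, 16.3 and 22.9 in cow 11, 14.4 and 14.1 in cow 16, and 19.9 and 19.5 in cow 19. Within a single diet the groups touched, since cow 19 on C was just above cow 2 on C and cow 11 on HC just above cow 15 on HC. Over both diets the cow means were 24.3 ± 2.47 CPM for high RFI and 18.004 ± 2.35 CPM for low RFI (SD, n = 4 and n = 5) and did not overlap, which held in this direction for 0.923% of the genes tested. Its exact permutation p was 0.00794 (two-sided), again the smallest possible (0.0476 adjusted over the 12 tests of the gene).

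The edgeR log2 difference of ALDH18A1 between the Holstein RFI groups was 0.35 (SE 0.09), which did not pass across all genes (adjusted p = 0.222). It passed with DESeq2 without a prior (adjusted p = 0.0344) and with its prior (adjusted p = 0.0249), and in edgeR with the selection block in place of parity (0.46, SE 0.09, adjusted p = 0.0295). These fits treat the 2 libraries of a cow as independent. DESeq2 with its prior called 75 genes in this comparison, against 8 in the main edgeR fit. With each cow left out in turn, the edgeR difference was 0.29 to 0.42 and passed in 0 of 9 fits (adjusted p = 0.0794 to 0.607). The study had selected cows in blocks of similar lactation stage and parity, with 1 high- and 1 low-RFI cow of each breed. The exact RFI permutations above ran over all Holsteins and did not keep these blocks. In the 4 Holstein blocks with both cows, high minus low RFI was -2.56 to -7.16 CPM for CTH and 2.43 to 9.94 CPM for ALDH18A1, and the sign of these differences is set by the groups not overlapping.

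CD3D, a subunit of the T cell receptor complex, was the only gene of the marker lists that could be paired with an identifier. It stood at 4.50 to 5.50 CPM among high-RFI and 2.18 to 3.93 CPM among low-RFI Holsteins, with a log2 difference of 0.59 (SE 0.16, edgeR adjusted p = 0.282). In the Jerseys it stood at 3.09 to 3.57 CPM with high RFI and 3.30 to 7.01 CPM with low RFI, with a log2 difference of -0.38 (SE 0.13, edgeR adjusted p = 0.676). CYP7A1 was at 202 to 635 CPM among high-RFI Holsteins, and at 68.5 to 266 CPM among low-RFI Holsteins, where 4 of the 5 cows were at 106 CPM or less (log2 difference 1.10, SE 0.28, edgeR adjusted p = 0.253). The other markers of leukocytes and of further cell types are not analysed here, and the part of cell makeup in the CTH and ALDH18A1 differences was not tested. In bulk tissue, fewer expressing cells and less RNA per cell cannot be told apart. Depth was similar between these groups, with 17472750 to 20318926 read pairs for high RFI and 18551055 to 20804568 for low RFI. INHBE, a liver-made inhibin subunit from the list of amino acid response genes, was at 9.56 to 35.6 CPM among high-RFI and 11.98 to 58.7 CPM among low-RFI Holsteins, and its log2 difference of -0.98 (SE 0.25) did not pass (edgeR adjusted p = 0.246). In the Jerseys this difference was 0.11 (SE 0.25, edgeR adjusted p = 0.994). CD3D, INHBE and CYP7A1 have symbols here because the study listed them by RFI in these Holsteins, so their Holstein differences by RFI were selected for.

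The Jersey RFI groups overlapped in both genes. CTH in the high-RFI Jerseys was at 12.8 CPM on C and 16.02 on HC in cow 3, 14.0 and 11.7 in cow 4, 11.9 and 12.9 in cow 12, 7.96 and 8.12 in cow 13, and 11.5 and 13.6 in cow 18. In the low-RFI Jerseys it was at 14.8 CPM on C and 10.1 on HC in cow 5, 10.7 and 13.1 in cow 8, 9.92 and 14.8 in cow 10, 10.9 and 10.9 in cow 14, and 12.5 and 10.3 in cow 17. Cow 13 stood lowest of the breed on either diet, at the level of the high-RFI Holsteins. The group means were 12.1 ± 2.39 and 11.8 ± 0.676 CPM (SD, n = 5 each), and the edgeR log2 difference was 0.04 (SE 0.11, adjusted p = 0.994). It was 0.11 without the cows labelled 10 and 17 (SE 0.14, adjusted p = 0.912).

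ALDH18A1 in the high-RFI Jerseys was at 18.98 CPM on C and 23.2 on HC in cow 3, 23.3 and 21.0 in cow 4, 28.7 and 27.4 in cow 12, 26.4 and 19.3 in cow 13, and 22.8 and 18.98 in cow 18. In the low-RFI Jerseys it was at 26.4 CPM on C and 17.9 on HC in cow 5, 23.3 and 22.0 in cow 8, 29.9 and 27.4 in cow 10, 27.8 and 15.8 in cow 14, and 37.4 and 19.8 in cow 17. The C library of cow 17 was the highest of all 38 libraries. Group means were 23.0 ± 2.93 and 24.8 ± 3.54 CPM (SD, n = 5 each), with an edgeR log2 difference of -0.08 (SE 0.10, adjusted p = 0.991). This value turned to 0.02 (SE 0.10, adjusted p = 0.981) without the cows labelled 10 and 17. Within the 5 Jersey selection blocks, ALDH18A1 was lower in the high-RFI cow in every block, by -0.50 to -5.78 CPM, as were 3.53% of the genes tested, and CTH was higher in 4 of 5 blocks, by 0.02 to 1.94 CPM, with -3.36 CPM in the block of cows 13 and 17. With the selection block in place of parity, the edgeR difference of ALDH18A1 was -0.07 (SE 0.09, adjusted p = 0.986), and 2 of the 5 blocks hold cow 10 or cow 17. Of the genes tested, 0.0336% were called by RFI in the Jerseys, and neither CTH nor ALDH18A1 was among them.

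The difference of the RFI effect between the breeds was tested in 1 fit of all 38 libraries. For CTH it was -0.72 on the log2 scale, Holstein minus Jersey (SE 0.17, unadjusted p = 0.000169), and for ALDH18A1 it was 0.43 (SE 0.14, unadjusted p = 0.00566). Neither passed across all genes in edgeR (adjusted p = 0.1006 and adjusted p = 0.318), where 0.0338% of the genes were called. For CTH the difference passed with DESeq2 without a prior (adjusted p = 0.0253), a fit that treats the 2 libraries of a cow as independent. That fit called 36 genes for this difference, against 4 in the main edgeR fit. With a random replicate block for the cow in limma, the CTH difference was -0.71 (adjusted p = 0.213). In edgeR with summed libraries it was -0.73 (adjusted p = 0.731). Without the cows labelled 10 and 17, the edgeR values were -0.78 (SE 0.18, adjusted p = 0.0578) for CTH and 0.31 (SE 0.13, adjusted p = 0.463) for ALDH18A1.

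**Figure D2:**
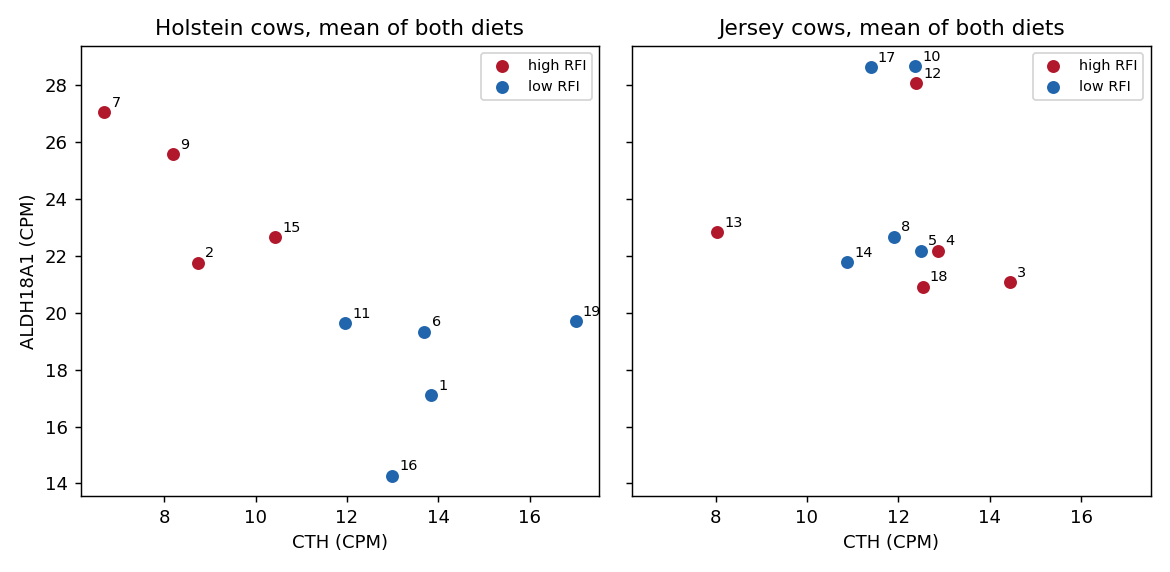
Mean ALDH18A1 against mean CTH (both in CPM, mean of both diets) for each Holstein cow (left) and Jersey cow (right), red for high RFI and blue for low RFI, with cow numbers. The high-RFI Holsteins sit at 6.69 to 10.4 CPM of CTH and 21.8 to 27.0 CPM of ALDH18A1, apart from the low-RFI Holsteins at 11.96 to 17.003 and 14.3 to 19.7, and the Jersey groups intermingle.

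Over both genes together, the Holstein cows fell into 2 separate clusters, one for each RFI group, and 3 Jersey cows (10, 12 and 17) lay at 28.1 to 28.6 CPM of ALDH18A1 against 20.9 to 22.8 CPM in the other 7, so no pooled correlation of the cow means is given for either breed. A ratio was also taken per cow from the summed counts of both her libraries, which compares cows and not the genes. CTH amounted to 24.7 to 46.0 read pairs per 100 of ALDH18A1 in high-RFI Holsteins and 60.8 to 91.0 in low-RFI Holsteins. In the Jerseys the ratio was 35.0 to 68.5 for high RFI and 40.1 to 56.4 for low RFI. Cow 7 had the lowest and cow 16 the highest ratio of all 19 cows.

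On the HC diet, ALDH18A1 was lower than on C in 9 of 10 Jerseys, and CTH was higher than on C in 7 of 9 Holsteins, but neither change passed across all genes in edgeR. ALDH18A1 averaged 26.5 ± 5.03 CPM on C and 21.3 ± 3.83 CPM on HC in the Jerseys (SD, n = 10). Its log2 ratio of HC over C was lowest in cows 17 (-0.92) and 14 (-0.82), followed by cows 5 (-0.56), 13 (-0.45), 18 (-0.27), 4 (-0.15), 10 (-0.12), 8 (-0.08) and 12 (-0.07), and only cow 3 was higher on HC (0.29). The 5 low-RFI cows lay between -0.92 and -0.08, and the 5 high-RFI cows between -0.45 and 0.29. The edgeR difference was -0.26 (SE 0.10, unadjusted p = 0.0126, adjusted p = 0.294), without pairing the libraries of a cow. With the cow as a fixed block it was again -0.26 (SE 0.10, edgeR adjusted p = 0.289). The exact two-sided sign-flip permutation test over cows gave p = 0.0273 (0.109 adjusted over the 12 tests of the gene). Of the genes tested in the Jerseys, 0.370% were called by diet in the unpaired fit (44 genes, and 71 with the cow as a fixed block), and 6.67% were lower on HC in at least 9 of 10 cows. Without the cows labelled 10 and 17 the edgeR difference was -0.20 (SE 0.09, adjusted p = 0.592) and the exact permutation p was 0.0703. The exact permutation p also exceeded 0.05 when cow 5, 13, 14, 17 or 18 was left out alone (up to 0.0547).

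**Figure D3:**
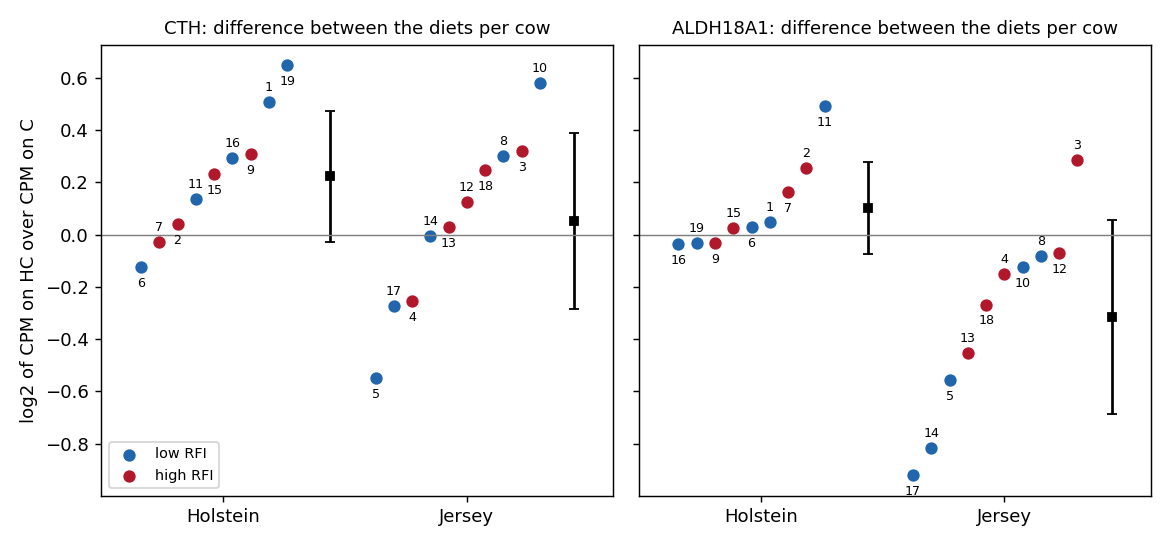
Log2 of CPM on HC over CPM on C for each cow, CTH on the left and ALDH18A1 on the right, with Holsteins and Jerseys side by side, red for high RFI, blue for low RFI, and the mean with its SD in black. ALDH18A1 lies below 0 in 9 of 10 Jerseys, down to -0.92, and between -0.04 and 0.49 in the Holsteins.

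In the Holsteins, ALDH18A1 averaged 20.03 ± 3.97 CPM on C and 21.5 ± 4.37 CPM on HC (SD, n = 9). Cow 11 had the highest log2 ratio of HC over C (0.49), cows 2 and 7 followed at 0.26 and 0.16, and the other 6 cows lay between -0.04 and 0.05. The edgeR difference was 0.13 (SE 0.08, adjusted p = 0.596), with an exact permutation p of 0.125 over cows. The diet effect on ALDH18A1 differed between the breeds by 0.39 on the log2 scale, Holstein minus Jersey, in the fit with the cow as a block (SE 0.12, unadjusted p = 0.00416), but not across all genes (edgeR adjusted p = 0.541). Permuting the breeds over the cows' differences gave p = 0.00568 (exact, two-sided, 0.0476 adjusted over the 12 tests of the gene). Without the cows labelled 10 and 17 the values were 0.33 (SE 0.12, edgeR adjusted p = 0.813) and p = 0.0105 (exact permutation test). For this comparison edgeR called 0% of the 11827 genes, with 966 genes at an unadjusted p under 0.05, and DESeq2 called 0 as well.

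CTH averaged 10.5 ± 2.58 CPM on C and 12.5 ± 4.29 CPM on HC in the Holsteins (SD, n = 9). The log2 ratio of HC over C was highest in the low-RFI cows 19 (0.65) and 1 (0.51), was between 0.04 and 0.31 in cows 2, 9, 11, 15 and 16, and was below 0 in cows 7 (-0.03) and 6 (-0.12). The edgeR difference was 0.26 (SE 0.09, unadjusted p = 0.00998, adjusted p = 0.202), without pairing the libraries of a cow. With the cow as a fixed block it was again 0.26 (SE 0.09, edgeR adjusted p = 0.134). Sign flips over the cows gave an exact two-sided p of 0.0273 (0.164 adjusted over the 12 tests of the gene). That p exceeded 0.05, up to 0.0547, when cow 1, 9, 15, 16 or 19 was left out (exact permutation test). Among the Holstein genes, 0.782% were called by diet in the unpaired fit (94 genes, and 345 with the cow as a fixed block). Higher levels on HC in at least 7 of 9 cows were found for 11.4% of them, so the count of cows for CTH is one that many genes share. In the Jerseys, CTH averaged 11.7 ± 2.00 CPM on C and 12.2 ± 2.39 CPM on HC (SD, n = 10), was higher on HC in 6 of 10 cows, and ranged in log2 ratio from -0.55 in cow 5 to 0.58 in cow 10. Its edgeR difference was 0.11 (SE 0.11, adjusted p = 0.748), or 0.09 without the cows labelled 10 and 17 (SE 0.13, adjusted p = 0.882). The diet effect on CTH differed between the breeds by 0.15 (SE 0.12, edgeR adjusted p = 0.760), or by 0.17 without these cows (SE 0.13, adjusted p = 0.831).

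Whether both genes moved together with the diet was asked over the cows of a breed. Between the log2 HC over C ratios of the 2 genes, Pearson's r was 0.60 over the 10 Jerseys (permutation p = 0.0678, adjusted p = 0.136) and Spearman's rho was 0.75 (permutation p = 0.0172, adjusted p = 0.0510), and r was 0.64 without cows 5 and 10. Over the 9 Holsteins, r was -0.41 (exact permutation p = 0.270, adjusted p = 0.360) and rho was -0.55 (exact permutation p = 0.133, adjusted p = 0.177), and r was -0.54 without cows 6 and 19. The adjustment covered 4 relations, those of the cow means included, and neither diet relation passed it. On TMM-scaled CPM the values were closer to 0, with r = 0.49 (permutation p = 0.149) and rho = 0.48 (permutation p = 0.166) in the Jerseys, and r = -0.34 (exact permutation p = 0.385) and rho = -0.28 (exact permutation p = 0.463) in the Holsteins. The 8 Jerseys other than those labelled 10 and 17 gave r = 0.54 (exact permutation p = 0.177) and rho = 0.71 (exact permutation p = 0.0576) on CPM. Both genes of a library share its total, and the points share the same 2 libraries per cow.

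Whether the diet effect differed between RFI groups was asked within each breed. For ALDH18A1 in the Jerseys, the log2 difference of the diet effect (high minus low RFI) was 0.39 (SE 0.17, edgeR unadjusted p = 0.0379, adjusted p = 0.999), and the mean log2 ratio of HC over C was -0.13 ± 0.27 for high RFI and -0.50 ± 0.39 for low RFI (SD, n = 5 each). Permutation over the cows gave an exact two-sided p of 0.135. Without the cows labelled 10 and 17, the interaction was 0.34 (SE 0.16, edgeR adjusted p = 0.999). It was 0.11 (SE 0.23) for CTH in the Jerseys, or 0.18 (SE 0.27) without these cows, and -0.22 (SE 0.18) for CTH and -0.06 (SE 0.17) for ALDH18A1 in the Holsteins (edgeR adjusted p = 1 for the Holstein pair and 0.999 for CTH in the Jerseys with and without them). By edgeR, 0% of the genes were called for the interaction (0 in the Holsteins and 0 in the Jerseys). An unadjusted p under 0.05 was found for 206 and 443 genes, and DESeq2 called 0 and 2.

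**Figure D4:**
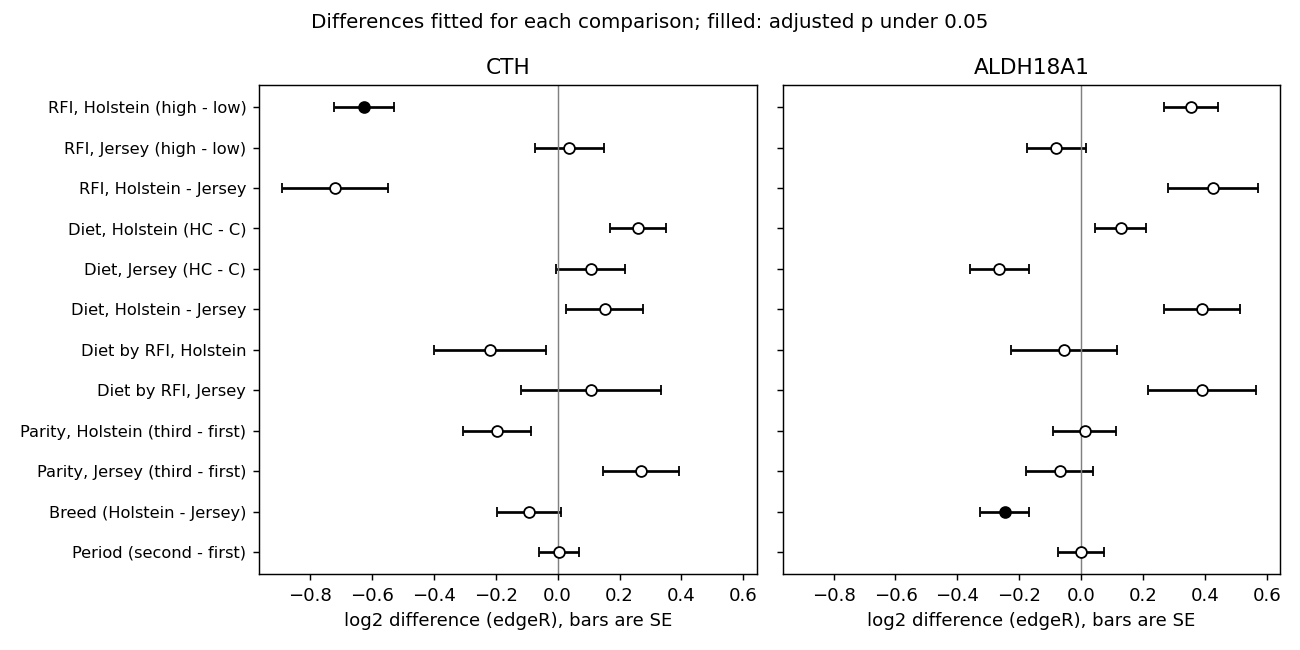
Log2 differences of CTH (left) and ALDH18A1 (right) fitted by edgeR for each comparison, with the SE as bars and filled points where the adjusted p was under 0.05. The filled points are CTH by RFI in the Holsteins (-0.63) and ALDH18A1 by breed (-0.25), and the period difference is near 0 for both genes.

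Over both RFI groups together, ALDH18A1 was lower in the Holsteins than in the Jerseys, by -0.25 on the log2 scale (SE 0.08, edgeR adjusted p = 0.0427). The cow means were 20.8 ± 3.99 CPM in the Holsteins, from 14.3 to 27.0 with a median of 19.7, and 23.9 ± 3.20 CPM in the Jerseys, from 20.9 to 28.6 with a median of 22.4 (SD, n = 9 and n = 10). These ranges overlapped, and the exact permutation test over cows gave p = 0.0845 (two-sided). The lower Holstein mean was seen only with low RFI, at 18.004 CPM in the Holsteins and 24.8 CPM in the Jerseys. With high RFI the order was the other way, at 24.3 CPM in the Holsteins and 23.0 CPM in the Jerseys. The breed difference within an RFI group was not tested. Many genes were called by breed, 9.20% of those tested in edgeR (1088 genes), a fit that treats the 2 libraries of a cow as independent. Summed libraries gave 371 called genes in edgeR, and a random replicate block for the cow gave 801 in limma. On the C diet the breed difference was -0.43 (SE 0.11, edgeR adjusted p = 0.0577), and on HC it was -0.06 (SE 0.07, edgeR adjusted p = 0.810). The call was lost without the cows labelled 10 and 17 (-0.16, SE 0.07, edgeR adjusted p = 0.232), with a random replicate block for the cow in limma (adjusted p = 0.0738), and in edgeR with summed libraries (adjusted p = 0.106) or without the limit on low counts (adjusted p = 0.0547). Leaving out a single cow also ended it for cows 1, 5, 6, 8, 9, 10, 11, 12, 16, 17 and 19 (11 of 19, adjusted p up to 0.115 in edgeR). No breed difference was called for CTH, with 11.5 ± 3.28 CPM in the Holsteins and 11.9 ± 1.66 CPM in the Jerseys and a log2 difference of -0.09 (SE 0.10, edgeR adjusted p = 0.632), or -0.11 without the cows labelled 10 and 17 (SE 0.12, adjusted p = 0.665).

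The order of the 8 groups by mean CTH ran from low-RFI Holsteins on HC (15.4 ± 3.33 CPM) through high-RFI Jerseys on HC (12.5 ± 2.90), low-RFI Holsteins on C (12.4 ± 1.30), low-RFI Jerseys on HC (11.9 ± 2.05) and on C (11.8 ± 1.96), and high-RFI Jerseys on C (11.6 ± 2.27), to high-RFI Holsteins on HC (8.95 ± 1.90) and on C (8.07 ± 1.28). Only the step from high-RFI Jerseys on C to high-RFI Holsteins on HC was larger than the SD of either neighbour, at 2.67 CPM. For ALDH18A1 the order ran from low-RFI Jerseys on C (29.0 ± 5.31 CPM) through high-RFI Holsteins on HC (25.1 ± 2.51), high-RFI Jerseys on C (24.1 ± 3.72), high-RFI Holsteins on C (23.4 ± 2.84), high-RFI Jerseys on HC (22.0 ± 3.45) and low-RFI Jerseys on HC (20.6 ± 4.46), to low-RFI Holsteins on HC (18.7 ± 3.25) and on C (17.3 ± 2.21). No step between neighbours in this order exceeded the larger of their SDs (SD over 4 or 5 cows in all these groups).

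Between parity 3 and parity 1, no difference was called for either gene, and parity 2 was not tested. CTH averaged 13.5 ± 3.32 CPM in the 3 Holsteins of parity 1, 8.94 ± 2.71 in the 3 of parity 2 and 12.1 ± 2.90 in the 3 of parity 3 (SD), and 2 of the 3 cows of parity 2 were high RFI. Adjusted for diet and RFI, CTH differed between parity 3 and parity 1 by -0.20 (SE 0.11, edgeR adjusted p = 0.546). The 3 against 3 cows cannot give an exact p below 0.1. In the Jerseys, CTH averaged 10.7 ± 1.91 CPM in the 4 cows of parity 1, 12.4 in both cows of parity 2 and 12.9 ± 1.08 in the 4 of parity 3 (SD), with a log2 difference of 0.27 between parity 3 and parity 1 (SE 0.12, edgeR unadjusted p = 0.0425, adjusted p = 0.360) and an exact permutation p of 0.0857. Without the cows labelled 10 and 17, it was 0.32 (SE 0.14, edgeR adjusted p = 0.369), and without cow 13 it was 0.13 (SE 0.11, edgeR adjusted p = 0.636). ALDH18A1 averaged 18.9 ± 4.25, 24.1 ± 3.92 and 19.4 ± 2.33 CPM in the Holsteins of parity 1, 2 and 3 (SD, n = 3 each). In the Jerseys it averaged 23.5 ± 3.48 CPM at parity 1, 28.4 at parity 2 (cows 10 and 12) and 22.0 ± 0.677 at parity 3 (SD, n = 4, 2 and 4). Its mean was thus highest at parity 2 in both breeds. Between parity 3 and parity 1, ALDH18A1 differed by 0.01 (SE 0.10, edgeR adjusted p = 0.981) in the Holsteins and -0.07 (SE 0.11, edgeR adjusted p = 0.832) in the Jerseys. The latter turned to 0.03 (SE 0.10, adjusted p = 0.920) without the cows labelled 10 and 17. For parity 3 against parity 1, edgeR called 0.383% of the Holstein and 0.227% of the Jersey genes.

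No difference between the feeding periods was called for either gene. Second minus first period, the log2 difference was 0.003 for CTH (SE 0.06) and -0.002 for ALDH18A1 (SE 0.07), with edgeR adjusted p-values of 0.997 and 0.999. CTH averaged 11.5 CPM in both periods in the Holsteins (± 3.98 and ± 3.41) and 11.7 ± 1.89 and 12.1 ± 2.48 CPM in the Jerseys, and ALDH18A1 averaged 20.3 ± 4.52 and 21.2 ± 3.91 CPM in the Holsteins and 24.1 ± 6.22 and 23.7 ± 4.06 CPM in the Jerseys (SD, n = 9 and n = 10 cows). By edgeR 0% of the genes were called for the period, with 626 at an unadjusted p under 0.05, while DESeq2 called 2. Feeding order was not balanced over the Holstein RFI groups, as 3 of 4 high-RFI and 2 of 5 low-RFI cows received HC first.

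The genes most like each enzyme were found by Pearson's r over 19 cows and 11826 other genes, as a description. The r was taken on cow means of TMM-scaled log2 CPM, centred within each breed. For CTH the highest r was 0.81 (ENSBTAG00000021245, not named in the sources used here), and the highest named gene was FICD, an enzyme that modifies the chaperone BiP of the endoplasmic reticulum, at place 5 with r = 0.73. FICD was at 2.24 ± 2.02 CPM in high-RFI and 8.13 ± 4.08 CPM in low-RFI Holsteins, and at 10.8 ± 4.91 and 7.498 ± 2.74 CPM in high-RFI and low-RFI Jerseys. At the other end, ENSBTAG00000007829 reached r = -0.79 with CTH, with 79.4 ± 27.6 CPM in high-RFI and 32.1 ± 15.5 CPM in low-RFI Holsteins. For ALDH18A1 the highest r was 0.77 (ENSBTAG00000006126) and the lowest was -0.75 for PCSK6, a proprotein convertase. PCSK6 stood at 145 ± 5.99 CPM in high-RFI and 165 ± 3.83 CPM in low-RFI Holsteins, against 126 ± 10.3 and 130 ± 16.6 CPM in the Jersey groups (SD, n = 4 or 5). CTH and ALDH18A1 themselves were at r = -0.51, so that ALDH18A1 came at place 11634 of the 11826 genes ordered by their likeness to CTH. These 19 cows include the 2 separate Holstein RFI clusters described above. The value is therefore not read as a relation of both genes over cows in general. FICD and PCSK6 have symbols here because the study listed them by RFI in these samples.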

How the data were processed

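Messenger RNA of 38 liver biopsies was sequenced with a stranded kit. Per the study's methods and the labels, the authors trimmed the reads, aligned them with STAR 2.3.0 to UMD3.1 and counted read pairs per Ensembl gene with HTSeq, whose version and strand setting are not given in the sources used here. The deposited values are raw counts of read pairs for 24616 genes. These genes held 74.9% to 79.9% of the counted pairs, and rows that name no gene were left out.

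Counts of CTH and ALDH18A1 were divided by the gene total of the library and given per 1000000 (CPM). Genes that reached 1 CPM in 8 or more Holstein libraries (10 or more in the Jerseys) were tested with the quasi-likelihood test of edgeR 4.0.16 (TMM scaling, R 4.3.3) in the model of the study (parity, diet and RFI group), with the diet by RFI term in a second model. Where both breeds were fitted together, genes passing in both were used, and the difference of the diet effect between the breeds and the period effect were fitted with the cow as a fixed block. P-values were adjusted over all genes tested by the Benjamini-Hochberg method (threshold 0.05). These models otherwise treat the 2 libraries of a cow as independent. Cow means of log2 CPM were also compared with exact two-sided permutation tests over cows (SciPy 1.17.1), with 12 tests per gene and adjustment over these 12. RFI groups were permuted freely over the cows of a breed, not within selection blocks. Alternatives were DESeq2 1.42.0, limma 3.58.1 with the cow as a random block, summed libraries, other scalings, filters and covariates, and each cow left out. The exact tests on TMM-scaled CPM and with cows left out, and the relation of both genes without cows 10 and 17, were added after the data were seen. The fits were tested on simulated counts. The simulated libraries were drawn independently with no effect of the cow, so this could not check how paired libraries were treated.

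Both libraries of a cow come from the same animal, so they are paired by design. Their deviations from the group means correlated on average at r = 0.42 in the Holsteins (9 of 9 cows above 0.1) and r = 0.30 in the Jerseys (8 of 10 cows above 0.1), against -0.05 and -0.03 between libraries of different cows on different diets. The RFI groups are named by RFI, so that the deposited label of high feed efficiency is low RFI here, and the RFI group column of the study's cow table, where cows of low RFI are called High, also names efficiency. Feeding order and selection block came from the study's methods.

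CTH and ALDH18A1, the gene lists and the tests were chosen with earlier results of these data known. Gene symbols were taken from the study's supplementary gene names, since the RefSeq table held 0 Ensembl identifiers. Of 86 pathway symbols 3 could be paired with an identifier, and of 61 cell type marker symbols 1, so pathway counts and marker lists are not analysed here. CTH, ALDH18A1 and their pathway partners were to be named by rule, together with the genes most like them over the 19 cow means, centred within breed. CYP7A1 was chosen after its values were seen.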

Additional observations from a re-analysis of the deposited data

Results flagged for a closer look

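In 32 sets of values (each gene in each breed and RFI group, on C, on HC, as the mean and as the log2 ratio of HC over C), a cow far from the others of its group was found in 2, and chance gives about 1 in 20. ALDH18A1 was higher on HC in cow 11 by a log2 ratio of 0.49, while the other 4 low-RFI Holsteins lay between -0.04 and 0.05. The mean ALDH18A1 level of the high-RFI Jersey cow 12 was 28.1 CPM, against 20.9 to 22.8 CPM in the other 4 cows of its group.

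The effects of RFI and diet differed between groups at an unadjusted p under 0.05 in 4 cases, none of which passed across all genes in edgeR. The RFI effect on CTH differed between the breeds by -0.72 (edgeR adjusted p = 0.1006), that on ALDH18A1 by 0.43 (edgeR adjusted p = 0.318), and the diet effect on ALDH18A1 by 0.39 (edgeR adjusted p = 0.541). Within the Jerseys, the diet effect on ALDH18A1 differed between the RFI groups by 0.39 (edgeR adjusted p = 0.999).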

How the results depend on the processing

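Of 164 log2 differences of both genes under the alternatives other than leaving out single cows, 142 kept their direction and their side of the threshold, 11 called ones no longer passed, 4 newly passed and 7 turned in sign. With each cow left out in turn, 267 of 304 kept both. The cause was not tested in any case. The call of CTH by RFI in the Holsteins (-0.63) did not pass with the replicate block (-0.63), with summed libraries (-0.63), on C alone (-0.52), on HC alone (-0.73) or on the RFI value itself (-0.34 per unit of RFI), and ranged from -0.68 to -0.58 with each cow left out. ALDH18A1 by RFI in the Holsteins (0.35) newly passed with DESeq2 without a prior (0.36) and with its prior (0.31) and with the selection block (0.46). It ranged from 0.29 to 0.42 with each cow left out and passed in 0 of these 9 fits. ALDH18A1 by breed (-0.25) did not pass on C alone (-0.43), on HC alone (-0.056), with summed libraries (-0.25), with no limit on low counts (-0.24), with the paired libraries as a random replicate block (-0.24) or without cows 10 and 17 (-0.16), and ranged from -0.27 to -0.20 with each cow left out. The difference between the breeds of the RFI effect on CTH newly passed with DESeq2 without a prior (-0.72) and in edgeR without cow 13 or cow 15 (range from -0.85 to -0.63 over all cows). It stayed uncalled with the random replicate block (-0.71) and with summed libraries (-0.73). No other call of these genes changed in the fits with a replicate block.

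Values near 0 that turned were ALDH18A1 by RFI in the Jerseys on HC alone (0.12) and without cows 10 and 17 (0.0207), CTH by RFI in the Jerseys on C alone (-0.0194), ALDH18A1 by parity in the Jerseys without cows 10 and 17 (0.0341), and ALDH18A1 by period with DESeq2 without a prior (0.000197), in the Holsteins alone (0.0681) and without cows 10 and 17 (0.0422). With each cow left out, the range crossed 0 for CTH by RFI in the Jerseys (-0.0517 to 0.151), for ALDH18A1 by parity in the Holsteins (-0.10 to 0.13) and the Jerseys (-0.140 to 0.0320), for the ALDH18A1 interaction in the Holsteins (-0.121 to 0.0227), and for the period in CTH (-0.0265 to 0.0340) and ALDH18A1 (-0.0378 to 0.0478). In the exact tests over cows, the mean log2 difference ranged from 0.17 to 0.27 for CTH by diet in the Holsteins, from -0.38 to -0.25 for ALDH18A1 by diet in the Jerseys, which did not pass without cows 10 and 17 (-0.26), and from -0.25 to -0.13 for ALDH18A1 by breed, which passed with cow 7 or cow 9 left out.

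The number of genes called, the background for both genes, moved more: by RFI from 8 to between 0 and 75 in the Holsteins and from 4 to between 0 and 21 in the Jerseys, by diet from 94 to between 15 and 345 (Holsteins, 345 with the fixed replicate block) and from 44 to between 0 and 196 (Jerseys), by parity from 46 to between 1 and 199 and from 27 to between 0 and 269, by breed from 1088 to between 187 and 1571, and for the RFI effect between the breeds from 4 to between 0 and 36.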
